A study of Mus musculus with 12 samples.

Results

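Immediate early genes are the first genes that a cell transcribes after a stimulus, without needing new protein synthesis, and this report follows 10 of them through resting lymphocytes of the mouse spleen. Members were taken by gene symbol, and the 10 (Fos, Fosb, Jun, Junb, Jund, Egr1, Ier2, Dusp1, Nr4a1 and Atf3) were all found among the 41128 genes of the table. Strand-specific RNA sequencing of total RNA depleted of ribosomal RNA had been done on 12 libraries in 4 groups of 3, all from C57BL/6J mice of 6 to 8 weeks with no treatment named. The groups were resting CD43- B cells of females, resting CD43- B cells of males, naive CD4+ CD62L+ T cells of females and naive CD4+ CD62L+ T cells of males. The T cells had been enriched by magnetic depletion and then sorted live as CD62L-high, CD44-low and CD25-negative cells. B cell libraries carried the numbers 1, 2 and 3 in each sex and T cell libraries the numbers 4, 5 and 6. Several animals per replicate were pooled for the methylation libraries of the study, and whether the same holds for the RNA libraries is not given in the sources used here. If the libraries were not from separate animals or pools, the p-values below measure a spread that may be technical.

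Fos and Fosb, with the 3 Jun proteins, form the dimers known as AP-1, a transcription factor that binds DNA through a basic leucine zipper. Kinase cascades that end on factors already bound at the promoters switch the genes on within minutes, and the messages are unstable, so that their level reflects recent signalling. Dusp1 is a phosphatase that turns the same kinases off, Egr1 is a zinc finger transcription factor, Nr4a1 is an orphan nuclear receptor that is induced by antigen receptor signals in lymphocytes, Ier2 is a small nuclear protein, and Atf3 is a stress-induced relative of AP-1. Several of these genes are also known to respond to the handling and dissociation of tissue.

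Promoter sequence was at hand for 8 of the 10 genes, from RefSeq on GRCm38.p6, and the letters of the core of the site for cAMP response element binding factors, TGACG on either strand, were looked for in the 250 bases before each start. They were present in 6 of the 8 (Fos, Fosb, Junb, Dusp1, Nr4a1 and Atf3), and in 17.8% of all 32851 promoters in the same window. The CArG box, the site of serum response factor, was in none of the 8 windows and in 1.47% of all promoters. A match is a description of the letters, and the lack of one says only that these letters are not in this window. The stretches before Fos, Fosb, Junb and Dusp1 are shown because these 4 genes have the core site on their own strand and had like orders of levels among the libraries, as described below. Fosb and Junb departed from the order of Fos in female B cells. Jun and Jund followed that order in every group without the letters in this window, and Nr4a1, with the letters on the other strand, in no group. A link between the letters and the levels was not tested. Capitals mark TGACG or its reverse complement, which overlap in the palindrome of Dusp1.
Fos, plus strand, chr12:85473640-85473889: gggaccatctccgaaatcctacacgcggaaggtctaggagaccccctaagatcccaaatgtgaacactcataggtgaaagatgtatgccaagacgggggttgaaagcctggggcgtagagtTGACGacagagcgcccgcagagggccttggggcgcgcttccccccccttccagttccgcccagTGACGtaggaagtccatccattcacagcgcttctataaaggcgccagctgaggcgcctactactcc
Fosb, minus strand, chr7:19310052-19310295: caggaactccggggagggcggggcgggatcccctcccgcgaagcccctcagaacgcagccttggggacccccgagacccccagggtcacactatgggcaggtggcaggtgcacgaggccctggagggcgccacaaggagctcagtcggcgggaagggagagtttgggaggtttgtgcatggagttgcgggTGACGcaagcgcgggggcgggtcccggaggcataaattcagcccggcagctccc
Junb, minus strand, chr8:84978749-84978998: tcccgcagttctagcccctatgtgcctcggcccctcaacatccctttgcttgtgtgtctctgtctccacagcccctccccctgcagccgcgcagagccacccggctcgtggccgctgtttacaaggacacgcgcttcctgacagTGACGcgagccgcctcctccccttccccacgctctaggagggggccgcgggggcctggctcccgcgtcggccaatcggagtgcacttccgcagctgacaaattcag
Dusp1, minus strand, chr17:26508520-26508722: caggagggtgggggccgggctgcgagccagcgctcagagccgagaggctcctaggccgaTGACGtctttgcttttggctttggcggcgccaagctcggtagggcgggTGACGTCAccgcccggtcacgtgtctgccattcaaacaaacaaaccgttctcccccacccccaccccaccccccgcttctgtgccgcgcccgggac
Fosb and Dusp1 are shown without the last bases before the RefSeq start (244 and 203 of the 250 printed), because the transcript listed first in the table starts earlier there. In Fos the core site began 129 and 66 bases before the RefSeq start, in Fosb 60, in Junb 106 and in Dusp1 191 and 143. The Dusp1 stretch lies before the start of the first transcript that the table lists, inside the span of a longer Dusp1 transcript.

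Values are TPM, an abundance scaled by transcript length and library, that the authors rescaled between libraries and called adjusted TPM. Their totals ran from 561020 to 1453940 per library, and no read counts are given, so that depth is unknown. The table gives an interval for each value, of a level that is not stated, and for Fos the upper bound was at most 1.17 times the lower. B cell markers (Cd79a, Cd79b, Ms4a1 and Pax5) summed to 2220 to 2640 in B cells and to 0.896 to 4.91 in T cells, and T cell markers (Cd3d, Cd3e, Cd4, Lck and Tcf7) to 1020 to 1190 in T cells and 9.76 to 14.1 in B cells, so each library matched its labelled cell type. The 2 T cell libraries numbered 6 stood apart in regulatory T cell markers (Foxp3, Il2ra and Ikzf2), with sums of 21.0 in females and 17.2 in males against 1.75 to 3.14 in the other 4, although the sort kept CD25-negative cells and Il2ra encodes CD25. The noncoding RNA Yam1 took 37.4% of the total in male T cells numbered 6 and 32.2% in female B cells numbered 1, while the leading gene of the other 10 libraries took 11.4% to 17.8%. Female B cells numbered 1 was also the library with the highest Fosb, Egr1, Nr4a1 and Atf3 of all 12. Results that turn on these libraries are given with and without them.

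The first question was whether the 10 genes were high in the same libraries. Within every one of the 4 groups, Fos was highest in the library numbered 1 or 4 and lowest in the library numbered 3 or 6, and the same order held in all 4 groups for Jun, Jund and Dusp1. Fosb, Jun, Junb, Jund and Dusp1 shared with Fos the highest library of each group. Nr4a1 was highest in the libraries numbered 6 among T cells, and Egr1 was highest with the others in B cells but not in T cells. The plot of adjusted TPM by library shows each value.

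Fos (chromosome 12, 85473890 to 85477273, plus strand, GRCm38) encodes the founding partner of the Jun proteins. In female B cells numbered 1, 2 and 3 its adjusted TPM was 174, 65.1 and 52.1, and in male B cells 111, 76.1 and 16.6. In female T cells numbered 4, 5 and 6 it was 171, 108 and 45.2, and in male T cells 189, 131 and 41.5. The B and T cell libraries overlapped over most of their range, and the highest library of a group exceeded its lowest by 3.33 to 6.65 times.

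Fosb (chromosome 7, 19302696 to 19310051, minus strand) encodes a close relative of Fos. Its adjusted TPM was 54.4, 18.2 and 21.8 in female B cells, 35.3, 26.2 and 5.65 in male B cells, 27.5, 16.9 and 5.72 in female T cells and 27.2, 21.7 and 4.26 in male T cells, in order of number. The libraries numbered 1 and 4 were again highest in each group, and in female B cells the library numbered 2 was lowest rather than 3.

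Jun (chromosome 4, 95049034 to 95052222, minus strand) encodes c-Jun, the principal partner of Fos. It stood at 109, 80.1 and 49.0 adjusted TPM in female B cells, 79.7, 67.8 and 36.2 in male B cells, 157, 129 and 74.9 in female T cells and 179.9, 116 and 44.4 in male T cells. In each group the highest and the lowest library were those of Fos. Junb (chromosome 8, 84974484 to 84978718, minus strand), a Jun protein that also restrains c-Jun, stood at 126, 77.3 and 108 in female B cells, 111, 97.5 and 57.6 in male B cells, 236, 161 and 112 in female T cells and 269, 164 and 97.7 in male T cells. Its T cell libraries numbered 4 and 5 were above every B cell library, and those numbered 6 were among the B cell values.

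Jund (chromosome 8, 70698949 to 70700616, plus strand) encodes the Jun protein that is present in most resting cells. It varied less, at 153, 146 and 117 adjusted TPM in female B cells, 139.7, 134 and 112 in male B cells, 160.2, 133 and 103 in female T cells and 179, 137 and 92.1 in male T cells. The highest and the lowest library of each group were again those of Fos. Its range of 1.25 to 1.94 times within a group was the smallest of the 5 AP-1 genes in each group.

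Dusp1 (chromosome 17, 26505590 to 26562128, minus strand), which dephosphorylates p38, JNK and ERK kinases, stood at 52.6, 25.2 and 25.0 adjusted TPM in female B cells, 37.5, 33.1 and 8.25 in male B cells, 71.1, 60.4 and 38.7 in female T cells and 82.8, 54.6 and 27.4 in male T cells. Female B cells numbered 2 and 3 were nearly level, and in each group the highest and the lowest library were those of Fos. Ier2 (chromosome 8, 84661331 to 84662852, minus strand) stood at 39.1, 36.4 and 34.8 in female B cells, 36.9, 43.1 and 31.2 in male B cells, 71.5, 61.4 and 51.1 in female T cells and 75.9, 62.4 and 56.7 in male T cells. All 6 T cell libraries were above all 6 B cell libraries.

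Egr1 (chromosome 18, 34859823 to 34864984, plus strand) stood at 15.1, 6.31 and 5.72 adjusted TPM in female B cells, 8.88, 6.86 and 5.95 in male B cells, 6.17, 6.28 and 6.13 in female T cells and 6.81, 5.44 and 7.05 in male T cells. One library, female B cells numbered 1, was above the rest, and T cells kept between 5.44 and 7.05. Nr4a1 (chromosome 15, 101254269 to 101274795, plus strand) stood at 12.8, 9.47 and 9.66 in female B cells, 9.18, 10.8 and 6.80 in male B cells, 8.21, 8.00 and 9.90 in female T cells and 7.95, 5.55 and 11.8 in male T cells. In T cells the libraries numbered 6 were the highest for Nr4a1 and the lowest for Fos.

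Atf3 (chromosome 1, 191170296 to 191218039, minus strand) was close to absent. It reached 0.875, 0.373 and 0.274 adjusted TPM in female B cells and 0.227, 0.478 and 0.0725 in male B cells, and lay between 0.0055 and 0.0094 in all T cell libraries. No library reached 1, so Atf3 did not pass the filter on low values and 9 of the 10 genes were tested. The upper bound of its deposited interval was 2.18 to 130 times the lower.

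**Figure D1:**
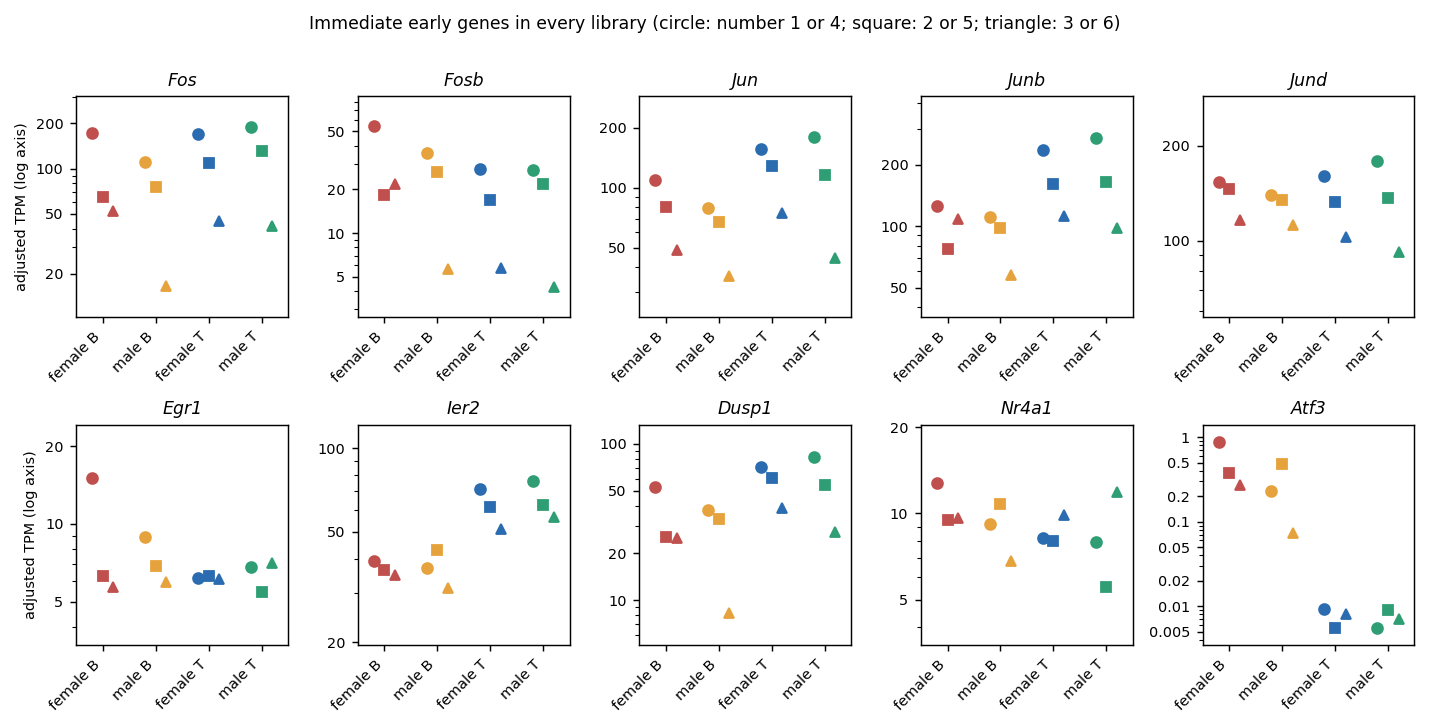
Adjusted TPM of the 10 immediate early genes (1 panel each, logarithmic axes of different range) in the 12 libraries, by group. Circles are libraries numbered 1 or 4, squares 2 or 5 and triangles 3 or 6, and each point is 1 library. Fos, Jun, Jund and Dusp1 have the circle on top and the triangle at the bottom in all 4 groups, while Nr4a1 has its triangles on top in T cells, at 9.90 and 11.8.

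By mean level per transcript length, Jund led in B cells at 134 ± 16.2 adjusted TPM (SD, n = 6), followed by Junb at 96.2 ± 24.8, Fos at 82.3 ± 54.2, Jun at 70.3 ± 25.8, Ier2 at 36.9 ± 3.99, Dusp1 at 30.3 ± 14.8, Fosb at 26.9 ± 16.6, Nr4a1 at 9.77 ± 1.96, Egr1 at 8.14 ± 3.601 and Atf3 at 0.383 ± 0.277. In T cells Junb led at 173 ± 67.6, followed by Jund at 134 ± 33.0, Jun at 117 ± 50.4, Fos at 114 ± 61.9, Ier2 at 63.2 ± 9.23, Dusp1 at 55.8 ± 20.4, Fosb at 17.2 ± 10.3, Nr4a1 at 8.58 ± 2.12 and Egr1 at 6.32 ± 0.566, with Atf3 last. Neighbours in both orders overlapped in range over their 6 libraries, except Egr1 and Atf3.

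The spread between replicates of one group was large for these genes. The pooled SD within groups, on the log2(adjusted TPM + 1) scale, was 1.15 for Fosb, 1.12 for Fos, 0.79 for Dusp1, 0.71 for Jun and 0.54 for Junb, and 0.38 for Egr1, 0.32 for Jund, 0.32 for Nr4a1 and 0.20 for Ier2. Against genes of similar mean level, Fosb was at the 99.7th percentile of SD and Ier2, the least variable, at the 90.4th. Deposited intervals did not overlap in 95 of the 108 replicate pairs of the 9 genes (88.0%), against 25.5% of the pairs of all 12520 tested genes. All 12 pairs were separate for Fos, Fosb, Jun and Junb, and 6 of 12 for Egr1, whose female T cell libraries differed by 1.02 times. The deposited intervals describe single libraries, and were set here against a spread between samples.

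Whether the genes deviate together was measured by Pearson's r over the 12 libraries after the mean of each group had been removed, so that differences between groups do not enter. With Fos, r was 0.98 for Fosb, 0.98 for Dusp1, 0.93 for Jun, 0.90 for Junb, 0.86 for Jund, 0.85 for Ier2, 0.51 for Egr1 and 0.01 for Nr4a1. Fosb and Dusp1 ranked 1 and 2 among the 12519 other tested genes, Jun 5, Junb 16, Jund 41, Ier2 53, Egr1 1181 and Nr4a1 6165. Spearman's rho was 0.97 for Fosb, 0.98 for Dusp1, 0.95 for Jun, 0.90 for Junb, 0.85 for Jund, 0.80 for Ier2, 0.57 for Egr1 and 0.22 for Nr4a1. Without the 2 libraries farthest from the median of Fos, male T cells numbered 6 and male B cells numbered 3, r was 0.97 for Fosb, 0.96 for Dusp1, 0.92 for Jun, 0.84 for Junb, 0.84 for Jund, 0.77 for Ier2, 0.64 for Egr1 and 0.13 for Nr4a1.

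An exact two-sided permutation test over all orders of the libraries within groups put 6 of the 8 genes under an unadjusted p of 0.05, from 0.00077 (Jun, Jund and Dusp1, the smallest that it can give) to 0.00694 (Ier2), all with positive r. Such a p was found for 8.31% of all tested genes, and with positive r for 3.47%. The same 6 were the ones with r of at least 0.8, which 0.687% of all tested genes reached. After Benjamini-Hochberg adjustment over all 12519 genes, no gene passed 0.05 (0.0%), the lowest adjusted p of the exact permutation test being 0.225. Because p cannot go below 0.00077, a pass would need many genes to share that smallest p. The lack of a pass therefore says little, here and in the gene lists below. Ier2 missed that p with every library rescaled to the same total (r = 0.63, exact permutation p = 0.13) or to the same protein-coding total (r = 0.68, p = 0.0826), and Egr1 reached it with the same total (r = 0.66, p = 0.0262). For Spearman's rho the exact permutation p ran from 0.000772 to 0.00926 for the same 6 genes, with adjusted values from 0.293 to 0.552. The test treats the 12 libraries as independent, while T cell libraries of the same number deviated together over all genes, with r of 0.72, 0.55 and 0.52.

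**Figure D2:**
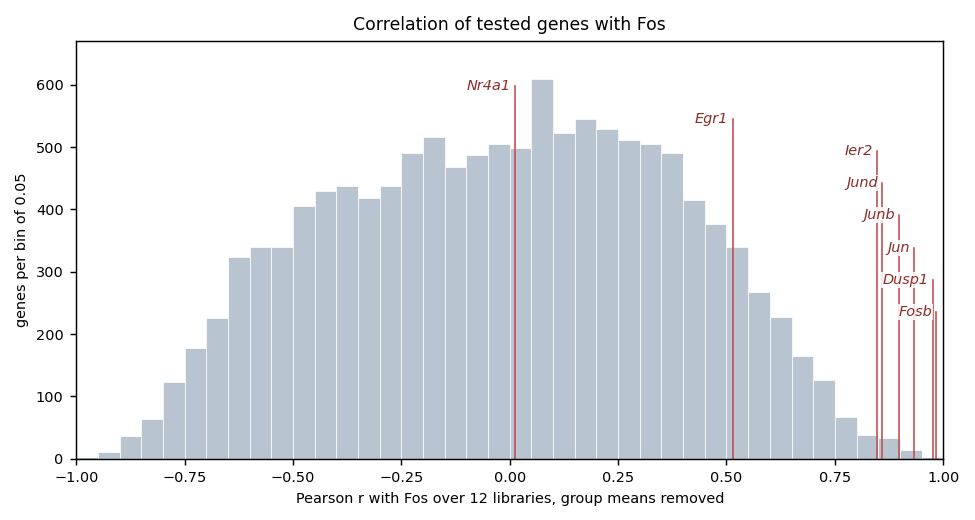
Number of tested genes (vertical axis) per bin of 0.05 of Pearson's r with Fos (horizontal axis) over 12 libraries with group means removed. Red lines mark the 8 other tested immediate early genes, their heights serving the labels only. Fosb, Dusp1, Jun, Junb, Jund and Ier2 sit at the right end, between 0.85 and 0.98, Egr1 at 0.51 and Nr4a1 at 0.01 in the middle.

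Within one cell type the same calculation used 6 libraries and 36 orders, so that its exact permutation p cannot go below 0.028. In B cells r with Fos was 0.99 for Dusp1, 0.98 for Fosb, 0.94 for Jun, 0.89 for Nr4a1, 0.88 for Junb, 0.85 for Jund, 0.79 for Ier2 and 0.76 for Egr1. In T cells it was 1.00 for Fosb, 0.98 for Jund, 0.97 for Jun, 0.97 for Dusp1, 0.97 for Junb and 0.93 for Ier2, but -0.28 for Egr1 and -0.72 for Nr4a1. The relation of Nr4a1 to Fos therefore had opposite signs in B and T cells, the exact permutation p being 0.111 in B and 0.194 in T cells. Without both T cell libraries numbered 6, r of Nr4a1 with Fos over the remaining 10 was 0.83 and that of Egr1 0.75.

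Among themselves the 9 tested genes had a median pairwise r of 0.84 over 36 pairs, from -0.29 to 0.98, while the median over all pairs of tested genes was 0.03 and 0.969% of all pairs reached 0.84. For the 6 genes Fos, Fosb, Jun, Junb, Jund and Dusp1 the median was 0.90 and the lowest 0.79. Libraries numbered 1 and 4 were highest in all 4 groups for these 6 genes and for 2.2% of all tested genes. Libraries numbered 3 and 6 were lowest in all 4 groups for 5 genes (Fos, Jun, Jund, Ier2 and Dusp1) and for 1.99% of all, and both orders held for 4 (Fos, Jun, Jund and Dusp1) and for 0.351% of all. Of the 9 genes, 9 were above their group mean in female and in male B cells numbered 1, and none in male B cells numbered 3.

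**Figure D3:**
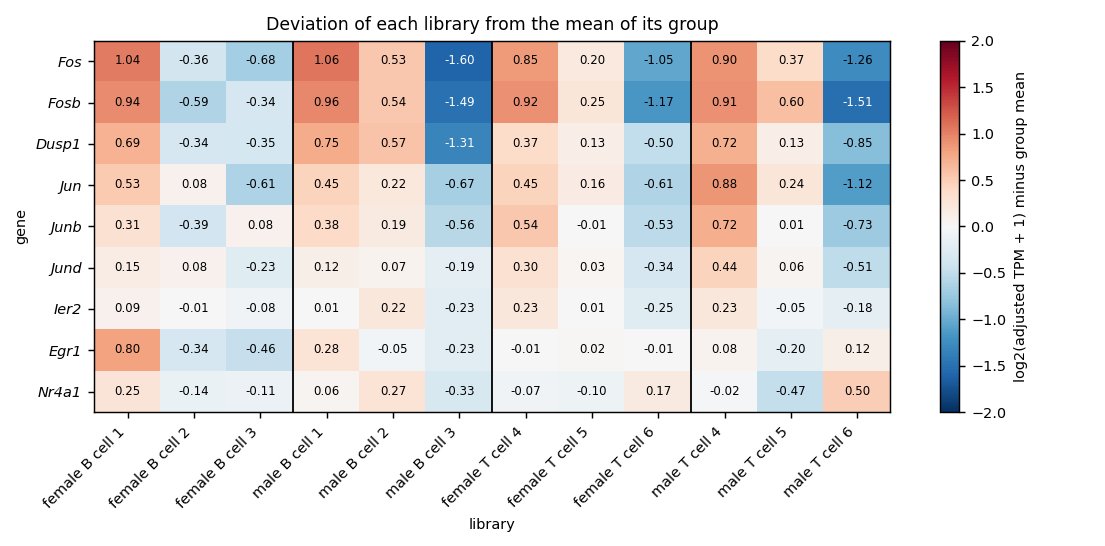
Deviation of each library from the mean of its group, as log2(adjusted TPM + 1), for the 9 tested genes (rows) in the 12 libraries (columns, groups separated by lines). Red is above and blue below the group mean. Libraries numbered 1 and 4 are red and male B cells 3 and T cells 6 blue for the upper 6 rows, with values for Fos from -1.60 to 1.06, while Nr4a1 is red in T cells 6, at 0.17 and 0.50.

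The number in the labels was also tested as a factor within a cell type, next to the sexes, with limma over all genes. In B cells no immediate early gene passed an adjusted p of 0.05, nor did any of the 12520 genes (0.0%), and 6 of the 9 (Fos, Fosb, Jun, Jund, Egr1 and Dusp1) had an unadjusted p under 0.05, as had 5.5% of all genes. In T cells none of the 9 passed, with 0.128% of all genes past the threshold, and 8 of the 9, all but Egr1, had an unadjusted p under 0.05, as had 15.1% of all genes. With every library rescaled to the same total, Fos and Fosb passed in B cells (73 of all genes) and Fos, Fosb, Jun, Junb and Dusp1 in T cells (153 of all genes), by limma. With the values as deposited, Fos was lower in the library numbered 3 than in 1 by a log2 difference of -2.19 in B cells (adjusted p = 0.44 by limma), and lower in 6 than in 4 by -2.03 in T cells (adjusted p = 0.15 by limma). Jun and Jund had the lowest adjusted p in T cells, 0.083 and 0.084 by limma. What the numbers stand for (an animal, a day or a preparation) is not given in the labels.

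Other measures moved with the same libraries. The summed adjusted TPM of mitochondrial protein-coding genes correlated with Fos at r = 0.73 over the 12 libraries (rho = 0.75, exact permutation p = 0.0448 and 0.0332, adjusted p = 0.21 over 8 measures), at 0.71 without the 2 libraries farthest from the median of Fos and at 0.54 in B and 0.99 in T cells. The regulatory T cell marker sum correlated with Fos at r = -0.56 (rho = -0.29, exact permutation p = 0.0972 and 0.39, adjusted p = 0.259), at -0.52 without those 2 libraries and at 0.45 in B and -0.95 in T cells. The T cell libraries fell into separate clusters in these markers, so that the last value sets 2 libraries against 4. The monocyte and macrophage markers (Lyz2, Cd68, Csf1r and Itgam) summed to 10.3 to 14.3 in B cells and 2.62 to 5.76 in T cells, r with Fos being -0.53 (rho = -0.62, exact permutation p = 0.0525 and 0.0332, adjusted p = 0.21). Without those 2 libraries r was -0.71, and it was -0.51 in B and -0.64 in T cells. Yam1 had r = 0.36 with Fos (rho = 0.52, exact permutation p = 0.299 and 0.167, adjusted p = 0.421), 0.60 without those 2 libraries, 0.83 in B and -0.36 in T cells. The protein-coding sum had r = 0.38 (rho = 0.48, exact permutation p = 0.316 and 0.2, adjusted p = 0.421), 0.67 without those 2 libraries, 0.70 in B and 0.09 in T cells. Total, erythroid and platelet markers and heat shock genes had r between -0.43 and 0.21 and exact permutation p from 0.274 to 0.843, the total having r = 0.54 without those 2 libraries, 0.57 in B and -0.54 in T cells. The part of these measures in the order of the libraries was not tested.

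The second question was whether the level differs between resting B and naive T cells, over all 6 libraries of each and with the sexes weighted equally. Of the 9 genes tested, 3 passed the threshold (adjusted p under 0.05, limma), and all 3 were higher in T cells: Ier2, Junb and Dusp1. The difference between the cell types was common in the whole table, where 73.0% of the tested genes passed, 41.6% higher in T cells and 31.4% higher in B cells, so 3 of 9 is below the share of all genes. The fit took the 6 T cell libraries as independent, although those of the same number deviated together. With same-numbered T cell libraries averaged, 2 of the 9 passed by limma, Ier2 (adjusted p = 0.00018) and Junb (0.029), and Dusp1 did not (0.087). Of the 12520 tested genes 8523 passed in that fit. In bulk samples, fewer cells of a type and less RNA per cell cannot be told apart.

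Ier2 was 1.69-fold higher in T cells, with a log2 difference of B minus T of -0.75 (SE 0.10, adjusted p = 2.1e-05 by limma). It was the 1 gene of the 9 whose B and T cell libraries did not overlap, as was the case for 53.9% of all tested genes. Junb was 1.73-fold higher in T cells, at -0.79 (SE 0.26, adjusted p = 0.015 by limma), with T cell values from 97.7 to 269 against 57.6 to 126 in B cells. Dusp1 was 1.94-fold higher in T cells, at -0.95 (SE 0.37, adjusted p = 0.035 by limma), with 27.4 to 82.8 against 8.25 to 52.6.

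The other 6 did not pass the test. Their log2 differences of B minus T were -0.67 for Jun (SE 0.34, adjusted p = 0.09), -0.55 for Fos (SE 0.53, adjusted p = 0.36), 0.63 for Fosb (SE 0.54, adjusted p = 0.31), 0.25 for Egr1 (SE 0.18, adjusted p = 0.24), 0.18 for Nr4a1 (SE 0.15, adjusted p = 0.31) and 0.02 for Jund (SE 0.15, adjusted p = 0.9), all by limma. The median log2 difference of the 9 was -0.55 and that of all tested genes -0.09.

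These calls depended on the scaling between libraries. With every library rescaled to the same total, the median of all genes moved from -0.09 to 0.25, with the same protein-coding total to 0.16, and with median-ratio scaling to -0.01. Relative to that median the genes stayed in place, Junb between -0.71 and -0.67, Ier2 between -0.67 and -0.64, Dusp1 between -0.86 and -0.84 and Fosb between 0.72 and 0.73. Ier2 kept its sign under all 4 scalings, as did Junb and Dusp1, but Ier2 missed the threshold with the same total (adjusted p = 0.09 by limma), Junb with the same total or protein-coding total (0.077 and 0.067) and Dusp1 with median-ratio or protein-coding scaling (0.054 and 0.088). With the same total Fosb, Egr1 and Nr4a1 passed as higher in B cells (log2 differences 0.98, 0.59 and 0.53), and with the same protein-coding total Egr1 and Nr4a1 did (0.50 and 0.44), by limma. Of the 12520 tested genes, 6797 passed in either direction with the same total and 8636 with the same protein-coding total. Over all the alternatives run the adjusted p by limma ran from 1.2e-05 to 0.09 for Ier2, from 0.0014 to 0.077 for Junb and from 0.0059 to 0.088 for Dusp1.

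**Figure D4:**
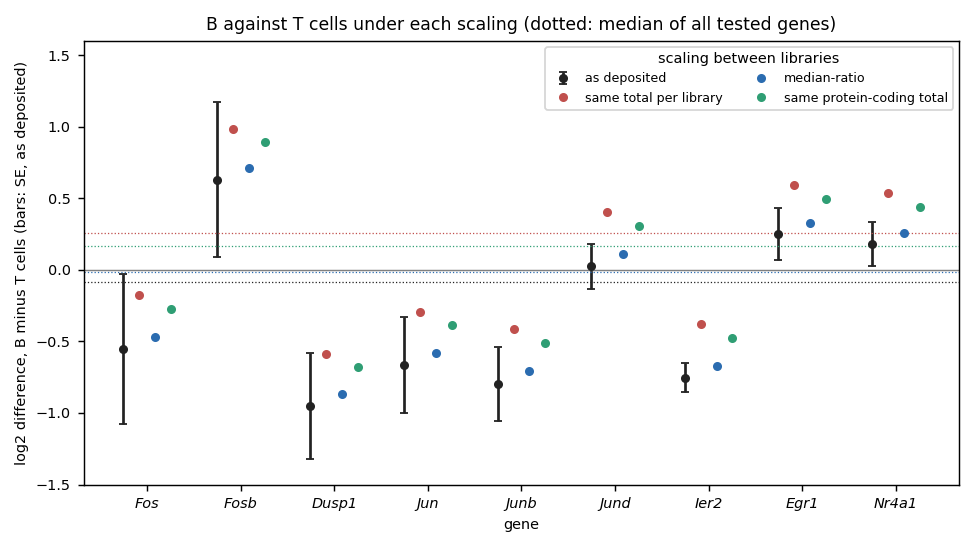
Log2 difference of B minus T cells for the 9 tested genes (vertical axis, on the log2(adjusted TPM + 1) scale) under 4 scalings between libraries (colours), with the SE of the limma fit for the values as deposited. Dotted lines are the medians of all tested genes under each scaling, from -0.09 to 0.25. Points of 1 gene shift together with these medians, and Ier2, Junb and Dusp1 are below 0 under all 4.

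Dusp1 lost its call when any of 7 libraries was left out (female B cells numbered 2 or 3, male B cells 3, female T cells 4 or 5, and male T cells 4 or 5), with log2 differences from -0.92 to -0.62 and adjusted p by limma from 0.064 to 0.086. Jun passed without male T cells numbered 6, at -0.95 (adjusted p = 0.0088 by limma). Without both T cell libraries numbered 6, which held the regulatory T cell markers, 5 of the 9 passed: Jun, Junb, Ier2 and Dusp1 higher in T cells and Nr4a1 higher in B cells, Jun at -1.10 (adjusted p = 0.0039) and Nr4a1 at 0.35 (adjusted p = 0.042), by limma. In that fit 9233 of the 12520 tested genes passed, so 5 of 9 is below the share of all genes.

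Of 4 ratios between AP-1 transcripts, those of Fosb to Fos and of Junb to Jund separated the cell types, and those of Fos to Jund (0.149 to 1.14 in B, 0.44 to 1.07 in T cells) and of Jun to Jund (0.323 to 0.715 in B, 0.482 to 1.01 in T cells) overlapped. The ratio of Fosb to Fos was 0.314, 0.279 and 0.419 in female B cells and 0.320, 0.344 and 0.340 in male B cells, against 0.161, 0.156 and 0.127 in female T cells and 0.144, 0.166 and 0.103 in male T cells. B cells had a mean ratio of 0.336 ± 0.0468 (SD, n = 6), compared with 0.143 ± 0.024 (SD, n = 6) among T cells, with no overlap, although the level of either gene overlapped. The ratio of Junb to Jund was 0.515 to 0.923 in B cells and 1.06 to 1.51 in T cells, also without overlap. The ratios were chosen after the values had been seen and carry no test, and since both genes of a ratio come from the same library, they do not depend on the scaling. How many ratios of other gene pairs lack overlap is not given here. Of single tested genes, 53.9% had B and T cell libraries without overlap.

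Of the summed adjusted TPM of the 5 AP-1 genes, Fos and Fosb made up 28.2% and 8.84% in female B cells numbered 1, the library with the highest sum in B cells (616). In male B cells numbered 3, the lowest (228), they made up 7.29% and 2.48%, and Jund alone took 49.1%. In T cells Jund took 21.2% to 32.9%, the highest shares in the libraries numbered 6, and Junb took 28.8% to 34.9%. The share of a steady gene is larger by arithmetic where the others are lower, and the order was not strict, female B cells numbered 3 having less Fos than those numbered 2 but a smaller share of Jund (33.6% against 37.7%).

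**Figure D5:**
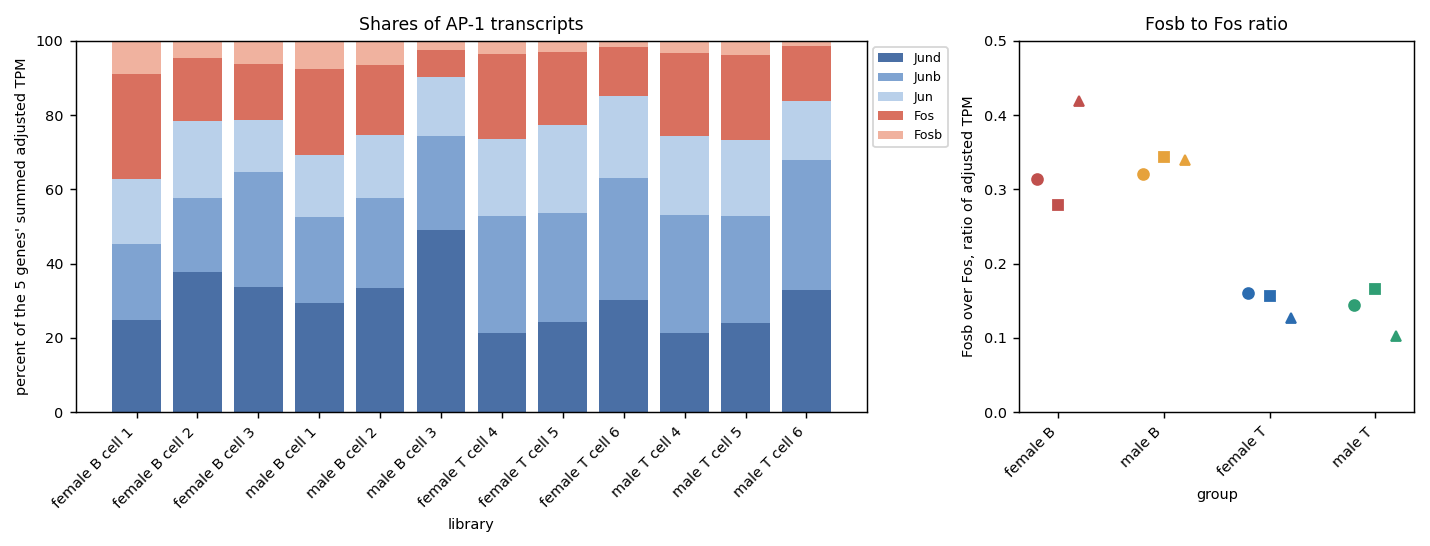
Left, share of each of the 5 AP-1 genes in their summed adjusted TPM (percent, vertical axis, from 0) in each library. Right, ratio of Fosb to Fos adjusted TPM by group, with 1 point per library (circles numbered 1 or 4, squares 2 or 5, triangles 3 or 6). B cell points lie between 0.279 and 0.419 and T cell points between 0.103 and 0.166.

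The third question was whether the sexes differ. In B cells 0 of the 9 genes passed the threshold by limma (0.144% of all tested genes did), 0 of the 9 had an unadjusted p under 0.05 (2.98% of all genes did), and the log2 differences of female minus male ran from 0.00 for Ier2 to 0.67 for Fos (SE 0.74). In T cells 0 of the 9 passed by limma (0.104% of all), 0 had an unadjusted p under 0.05 (2.55% of all), and the differences ran from -0.10 for Fos (SE 0.74) to 0.23 for Jun (SE 0.47). The difference between the sex effects of the cell types passed for none of the 9, and for 0.0% of all genes, with 0 of the 9 under an unadjusted p of 0.05 by limma (2.36% of all). With an SE of 0.74 for Fos, a sex difference of the size of its spread between replicates was not detectable here.

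The rest of the immediate early programme was followed in a list of 36 other immediate early and early response genes, 32 of which passed the filter (Ier3, Nr4a2, Npas4 and Cyr61 did not). Between the cell types, 14 were higher in B cells, 11 higher in T cells and 7 did not pass, with a median log2 difference of -0.01. Of all tested genes 31.4% passed as higher in B cells and 41.6% as higher in T cells. Egr3, a relative of Egr1, was higher in B cells at 10.2 ± 1.82 against 1.37 ± 0.254 adjusted TPM (SD, n = 6 each, log2 difference 2.22, adjusted p = 1.2e-09 by limma). Dusp4, a nuclear relative of Dusp1, was higher in B cells at 7.76 ± 1.72 against 0.877 ± 0.136 (log2 difference 2.20, adjusted p = 3e-09 by limma). Dusp4 would not have passed the filter on its T cell values, so its difference was in part set by the filter.

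Socs3, a feedback inhibitor of cytokine signalling, was higher in T cells at 46.7 ± 16.5 against 5.64 ± 1.62 (log2 difference -2.82, adjusted p = 1.8e-08 by limma). Sgk1, a serum- and glucocorticoid-induced kinase, was higher in T cells at 47.6 ± 4.82 against 12.6 ± 1.55 (log2 difference -1.84, adjusted p = 3.4e-10 by limma). These 4 genes had the largest differences of the list.

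Of the same 32 genes, 11 had a positive r with Fos with an unadjusted exact permutation p under 0.05 (3.47% of all genes), none after adjustment, and the median r was 0.49. The highest were Klf2, a transcription factor of quiescent lymphocytes, at r = 0.94 (rho = 0.92, 0.93 without the 2 farthest libraries), Klf4, its relative, at 0.93 (rho = 0.97, 0.93 without them), Ppp1r15a, a stress-induced phosphatase subunit, at 0.91 (rho = 0.94, 0.85 without them), and Csrnp1, a nuclear protein, at 0.88 (rho = 0.87, 0.76 without them). The other 7 were Zfp36, Btg1, Ier5, Dusp6, Pim1, Rhob and Arc. Klf2 ranged from 138 to 222 adjusted TPM and Ppp1r15a from 13.1 to 92.1. Nfkbia, Cd69 and Mcl1 had r of -0.27, -0.11 and -0.35, so that the list did not move as one.

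Among 20 relatives of AP-1 with a basic leucine zipper, 16 passed the filter, 7 were higher in B cells, 6 higher in T cells and 3 did not pass. Over all tested genes 73.0% passed, 31.4% as higher in B cells and 41.6% as higher in T cells. Atf6, a sensor of endoplasmic reticulum stress, had the largest difference, 26.2 ± 1.51 in B cells against 2.23 ± 0.262 in T cells (log2 difference 3.08, adjusted p = 2.2e-13 by limma). Fosl2, a Fos relative, was at 0.0964 ± 0.0158 in B cells and 2.07 ± 0.264 in T cells (log2 difference -1.48, adjusted p = 1.9e-10 by limma). Fosl2 passed the filter through its T cell values alone, so its difference was in part set by the filter. Bach2, a repressor that competes at AP-1 sites, was higher in B cells by 1.29, and Batf, which pairs with Jun proteins, higher in T cells at -1.09 (adjusted p = 5.8e-07 and 9.8e-08 by limma).

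With Fos, 5 of the 16 had an unadjusted exact permutation p under 0.05, 2 of them positive and none after adjustment. Among all tested genes 8.31% had such a p, 3.47% with positive r. Atf4, which drives the response to amino acid and endoplasmic reticulum stress, had r = 0.91 (rho = 0.92, 0.86 without the 2 farthest libraries). Creb1, a factor of the cAMP response element, had -0.69 (rho = -0.64, -0.58 without them), Fosl2 -0.68 (rho = -0.65, -0.70 without them) and Bach2 -0.66 (rho = -0.47, -0.53 without them). Fosl2 thus deviated against Fos, at low levels.

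All 25 genes of the list of upstream kinases, phosphatases and promoter factors passed the filter. Of these 9 were higher in B cells, 9 higher in T cells and 7 not past the threshold, while 73.0% of all tested genes passed. Dusp16, a phosphatase of JNK, was at 9.75 ± 0.801 in B cells and 0.742 ± 0.188 in T cells (log2 difference 2.63, adjusted p = 3e-12 by limma), and Dusp10, with like substrates, at 12.2 ± 2.30 and 32.2 ± 2.51 (log2 difference -1.34, adjusted p = 1.8e-07 by limma). Dusp16 passed the filter through its B cell values alone, so its difference was in part set by the filter. The kinases Rps6ka5 (13.9 ± 0.705 against 3.80 ± 0.268) and Rps6ka1 (27.8 ± 1.62 against 67.3 ± 7.15) differed in opposite directions, by 1.63 and -1.24 (adjusted p = 1.2e-11 and 5.7e-09 by limma). With Fos, 2 of the 25 had an unadjusted exact permutation p under 0.05, near the share of 8.31% of all tested genes, and both were negative. They were Elk4, a partner of serum response factor, at r = -0.89 (rho = -0.72, -0.82 without the 2 farthest libraries), and Dusp16 at -0.79 (rho = -0.80, -0.81 without them).

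Heat shock genes, which mark another response to stress, were followed as well. Of 12 genes 11 passed the filter, and 0 had an unadjusted exact permutation p under 0.05 with Fos (8.31% of all tested genes). The median r was 0.22, from -0.44 to 0.43. Between the cell types 2 were higher in T cells, Bag3 and Hspe1, and 9 did not pass, while 73.0% of all tested genes passed. Bag3 passed the filter through its T cell values alone, so its difference was in part set by the filter.

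The 9 genes most like Fos outside the 10, of genes whose mean log2 value was 3 or more, were Klf2 (r = 0.94), the chromatin protein Hmgb1 (0.94), Atf4 (0.91), Ppp1r15a (0.91), Zc3h10 (0.90), Il17ra (0.90), Hmgb2 (0.90), the insulin signalling adaptor Irs2 (0.90) and Leprotl1 (0.90), over 12 libraries with group means removed. Hmgb1 ranged from 161 to 228 adjusted TPM and Irs2 from 7.01 to 43.7. Under the same limit on mean level, the least like were the long noncoding RNA 1300002E11Rik (r = -0.92), Zfp866 (-0.91), Dnajc13 (-0.91), Wdr37 (-0.90) and Mfsd4 (-0.90). These genes moved little beside Fos, Dnajc13 between 26.5 and 36.5 adjusted TPM while Fos ran from 16.6 to 189.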

How the data were processed

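The 12 libraries formed 4 groups of 3 by the labels. The labels list the molecule as genomic DNA but describe RNA extraction and RNA libraries, and the samples were treated as RNA. The submitters' notes name Trim Galore, FastQC, STAR and mm10. The authors had rescaled TPM between libraries before the table was deposited, so its values are a normalised signal, an adjusted TPM with a lower and an upper bound per library, and not counts. The quantifier, the rescaling and the level of the bounds are not given in the sources used here, and the precision beyond the deposited bounds is unknown. All 10 genes and the gene lists were chosen with earlier results of these data known. All columns were mapped to a sample. A B cell marker of the chosen list is not reported here. Positions came from GENCODE M21 (97.9% of the table's genes matched) and promoters from RefSeq.

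Values were tested as log2(adjusted TPM + 1), so fold changes of low genes are understated. Genes with a value of at least 1 in at least 3 libraries (12520) entered limma 3.58.1 (R 4.3.3) with a mean-variance trend, a coefficient for each group and Benjamini-Hochberg adjustment, threshold 0.05. Correlations with Fos used deviations from group means and exact permutation in Python 3.11.15 with numpy 2.4.6. On simulated data with 200 of 12520 genes changed by log2 1, limma recovered 97.8% between cell types, 94.3% between sexes in B and 93.8% in T cells, and 77.8% for the number in B cells. The changed genes were drawn at random from all tested genes, with their own SD and no other difference between groups. The median SD within groups was 0.135 for all tested genes and 0.54 for the 9, so these rates do not carry over to the 9. Same-numbered female and male T cell libraries deviated together over all genes (r = 0.72, 0.55 and 0.52), so the numbers pair the T cell samples; the pairing comes from the data, since no label explains the numbers. Alternatives were another pseudocount (0.1), no filter, 3 other scalings, 1 library left out at a time, both T cell libraries numbered 6 left out, same-numbered T cell libraries averaged, and the number as a block; protein-coding scaling, leaving out both numbered 6, the averaging, the block over all libraries and the test of the number were added after the data had been seen. From each other list, up to 4 genes past the threshold with the largest difference between cell types and up to 4 with the largest r with Fos were eligible to be named, with the 10 most and 5 least like Fos, of which 9 and 5 are; Nfkbia, Cd69 and Mcl1 and the genes listed without values were named after their values had been seen.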

Additional observations from a re-analysis of the deposited data

Results flagged for a closer look

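Nr4a1 was singled out because its libraries moved in opposite directions in the 2 cell types. From the library numbered 1 to that numbered 3, its log2(adjusted TPM + 1) was lower by 0.37 in female and 0.38 in male B cells, and from 4 to 6 it was higher by 0.24 in female and 0.52 in male T cells. The mean change in B cells less that in T cells was -0.76. The difference was not tested. Of the 9 genes, Nr4a1 alone changed in opposite directions in the 2 cell types in both sexes. The mean change of Egr1 was also opposite, -0.88 in B and 0.02 in T cells, but its female T cells changed by -0.0067. The T cell libraries numbered 6 were also those with the regulatory T cell markers, whose part in the change of Nr4a1 was not tested.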

How the results depend on the processing

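The number of the 9 genes past the threshold between B and T cells stayed within 2 to 4 when each library was left out. It was 5 without both T cell libraries numbered 6, and the cause was not tested. Of the 12520 tested genes, 8717 to 9193 passed with each library left out and 9233 without both. The median pairwise r of the 9 genes, 0.84, was 0.72 with every library rescaled to the same total and 0.73 with the same protein-coding total, and 0.79 to 0.86 with each library left out. Under the same-total scaling limma estimated infinite prior degrees of freedom, so that genes of like level were given like errors, and its calls rest on that. Fosb in B minus T cells turned to -0.039 and Jund to -0.19 without both T cell libraries numbered 6, and Jund ranged from -0.10 to 0.13 with each library left out. The r of Nr4a1 with Fos, 0.01, was -0.14 with protein-coding scaling, -0.72 in T cells alone and -0.38 to 0.54 with each library left out, and that of Egr1 was -0.28 in T cells alone; the cause was not tested. Egr1 passed an unadjusted exact permutation p of 0.05 with Fos without male T cells numbered 5 (r = 0.57) or 6 (r = 0.67), and the number of genes under that p with each library left out was 6 to 7. Without female B cells numbered 1, the library with the highest Egr1, its r with Fos was 0.39 (exact permutation p = 0.424). Its B minus T difference there was 0.05 (adjusted p = 0.65 by limma), against 0.25 with all libraries. With the number as a replicate block, 0 of the 9 genes passed in B cells, in T cells or for the difference between the sex effects, as without it; no block was fitted for B against T cells or for the correlations. In B cells same-numbered libraries did not deviate together over all genes (r = -0.17, -0.04 and -0.34). For Fos, Jun, Jund, Egr1 and Dusp1, however, the B cell libraries fell in the order 1, 2, 3 in both sexes. Without the filter Atf3 passed between B and T cells and Dusp1 did not (adjusted p = 0.084 by limma). That fit also passed 24591 of all 41128 genes between B and T cells. Between the sexes it passed 10985 genes in B and 10607 in T cells, against 18 and 13 with the filter. Its calls for Atf3 and Dusp1 are therefore not to be relied on. The unknown depth sets no limit of detection.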
